A study of Homo sapiens with 30 samples.

Results

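The RNA of the granule fraction of FT293 cells that express GFP-TIA1aWDM was compared with and without sodium arsenite. TIA1 is an RNA-binding protein that helps to build stress granules, and the WDM form carries the mutation linked to Welander distal myopathy. FT293 cells are Flp-In T-REx HEK293 cells, a human embryonic kidney line, stably transfected with a plasmid for the GFP fusion. The members are all libraries of that fraction from tetracycline-treated WDM cells, which came to 6 of the 30 libraries in the series: 3 from cells given tetracycline alone and 3 from cells given tetracycline and 0.5 mM NaAsO2 for 60 min. Both groups carry the WDM transgene and received tetracycline. Granule cores were taken from the high-speed pellet of a cell lysate by beads that bind GFP, and RNA was sequenced after removal of ribosomal RNA. The libraries without arsenite are titled as granules too, although the core preparation is described for arsenite-treated cells, and the labels do not say whether untreated cells held granules. A difference between the groups is thus one between 2 pulldowns with GFP-TIA1aWDM. For comparison, 6 granule libraries of the matching GFP-TIA1aWT line and 6 cytosol libraries of the WDM line were used, each again 3 with and 3 without arsenite. The sources used here do not say whether a line is 1 clone or whether replicates are separate cultures, so p-values measure the spread between these libraries.

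Stress granules are assemblies of RNA and protein that form when translation initiation stops, and arsenite is a standard trigger because it activates an eIF2α kinase. TIA1 binds U-rich and AU-rich RNA and joins granules through a prion-like domain. RNAs released from ribosomes, above all long and poorly translated ones, are those usually described in granules, while mRNAs of ribosomal proteins are usually described as poor in them. Arsenite also induces transcription of immediate-early, heat-shock and antioxidant genes within the same hour.

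The 3 libraries without arsenite held 10085902 to 16335526 counts, and the 3 with arsenite held 22179071 to 27419145, so depth differed between the groups without overlap. Values are CPM, counts scaled to a common library total with TMM factors, and a fold change compares an RNA's share of the library. A loss of one RNA and a gain of the remainder can therefore not be told apart. Among the principal components of the 12 granule libraries, the first (37.9% of variance) separated arsenite from no arsenite and the second (24%) separated the lines. On the third (11.3%) both WDM libraries numbered 1 stood apart from the other 4 WDM libraries, at -27.0 and -29.9 against 0.219 to 30.3. Replicate 1 without arsenite was the more distant, with counts that differed from replicates 2 and 3 by 40.7 and 33.3 chi-square units per degree of freedom, against 3.38 between replicates 2 and 3. The arsenite pairs lay at 28.5, 28.9 and 19.3. Counts were therefore also taken without both libraries numbered 1. The 6 genes listed as epithelial markers were present, with KRT8 at 392 to 1277 counts. Their summed level was 373 to 415 CPM without and 389 to 401 CPM with arsenite. Most of that sum was CDH2, N-cadherin, which is not specific to epithelium, at 265 to 282 CPM without and 281 to 309 CPM with arsenite. CDH1, E-cadherin, was at 3.85 to 8.84 CPM over the 6 libraries. Of neural-lineage markers, NEFL was at 44.6 to 78.3 CPM, INA at 7.83 to 13.4 CPM and NEFM at no more than 2 counts. Of kidney-lineage markers, PAX2 was at 8.76 to 20.0, WT1 at 7.41 to 14.4 and LHX1 at 0.892 to 4.91 CPM. Of 11 markers of other cell types, 6 had no more than 10 counts in any library, and PTPRC, CD74, DCN, DES and CDH5 reached at most 2. COL1A1 reached 172 counts, ACTA1 79, VWF 41, LUM 18 and ALB 11. The summed level of these 11 markers was 5.65 to 7.58 CPM without and 9.52 to 11.1 CPM with arsenite, and its part in the results was not tested. TIA1 itself was listed at 0 counts in all 6 libraries, so the transgene could not be checked from these counts.

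Arsenite changed the granule RNA of WDM cells broadly and in both directions. Of 18366 genes that passed the count filter, 6675 (36.3%) were called at an edgeR adjusted p under 0.05, 3429 (18.7%) higher and 3246 (17.7%) lower. In 8576 genes (46.7%) the 2 groups did not overlap. A change of at least 1 on the log2 scale was called for 1310 genes upward (7.13%) and 772 downward (4.2%). The median log2 change of all genes was 0.008. The largest rises included mRNAs of immediate-early transcription factors, and the largest falls included the signal recognition particle RNA and the mRNAs of the cytoskeletal proteins SYNE2 and SPTBN1. Ribosomal protein mRNAs fell in 71 of 74 cases. Without both libraries numbered 1, 6095 genes were called, of which 5630 were among the 6675.

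**Figure D1:**
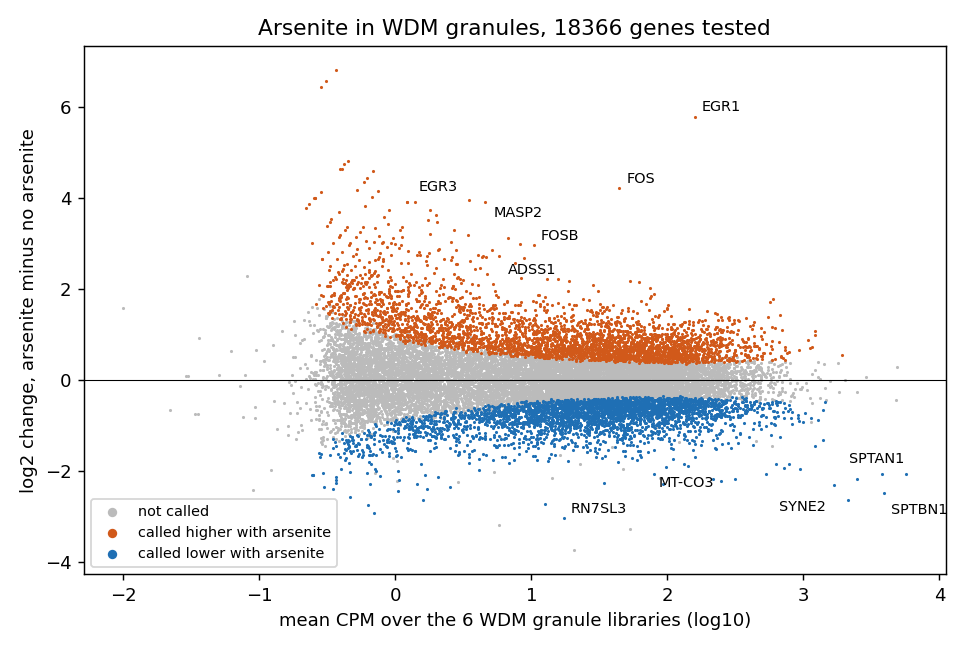
Log2 change with arsenite in WDM granules (vertical axis) against the mean CPM of the 6 libraries (log10, horizontal axis), 1 point per gene tested, with called genes in colour. EGR1 and FOS lie far above the cloud, and abundant genes that fell include SPTBN1, SPTAN1 and SYNE2 at log2 changes of -2.48, -2.19 and -2.65.

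EGR1, an immediate-early zinc-finger transcription factor, had the largest rise among genes of at least 5 CPM. Its level was 6.83, 5.56 and 4.76 CPM in the libraries without arsenite and 274, 334 and 328 CPM in those with it. The groups did not come near each other, and the fold was 55.1 (log2 change 5.78, SE 0.242, edgeR adjusted p = 1.43e-15). FOS, the AP-1 subunit, stood at 6.06, 4.21 and 3.44 CPM without arsenite and at 59.2, 119 and 72.4 CPM with it, an 18.6-fold rise (edgeR adjusted p = 2.05e-11). EGR3, of the same family as EGR1, went from 0.385 to 0.438 CPM up to 5.94 to 7.11 CPM. FOSB rose 7.78-fold, and MAFF, a small Maf transcription factor, rose 6.48-fold from 1.13 to 1.42 CPM up to 7.16 to 8.58 CPM. In each of these 5 genes every arsenite library lay above every library without arsenite.

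EGR1 lies on chromosome 5 at positions 138465479 to 138469303 (GRCh38, plus strand). Its upstream sequence is shown because it holds the sites through which serum response factor is known to induce the gene. The 250 bases before the RefSeq start (GRCh38.p14, chr5:138465229-138465478, plus strand) are printed with 2 CArG boxes, the binding site of serum response factor, in capitals.
EGR1: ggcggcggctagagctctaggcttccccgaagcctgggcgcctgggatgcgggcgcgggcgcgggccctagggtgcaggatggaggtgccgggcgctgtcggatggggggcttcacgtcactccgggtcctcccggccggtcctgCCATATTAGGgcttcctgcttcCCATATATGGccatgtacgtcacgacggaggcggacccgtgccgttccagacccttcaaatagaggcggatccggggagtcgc
The CArG box reads alike on both strands in its pattern and was searched in the same 250 bases of 27305 RefSeq promoters, of which 312 (1.14%) held one. Of 25 immediate-early genes with an entry, 2 (8.0%) held one, EGR1 and SRF, the gene of serum response factor itself, which rose by 1.08 on the log2 scale. For the other 23 these letters are not in this window, which says nothing about the factor.

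The immediate-early list as a whole moved in one direction. Of 36 listed genes, 35 were tested, 32 were called higher (91.4% against 18.7% of all genes) and 0 lower. The median log2 change was 1.32 over the list and 0.01 over all genes tested, and in 33 of the 35 the arsenite libraries all lay above the others, against 23.7% of all genes. Without both libraries numbered 1, 33 were called higher. After the EGR and FOS genes, ZFP36, which recruits decay enzymes to AU-rich mRNAs, rose by 2.58 and the matricellular protein gene CCN1 by 2.23 on the log2 scale. JUN, the partner of FOS, went from 102, 135 and 139 CPM to 277, 328 and 415 CPM (log2 change 1.44, SE 0.217, edgeR adjusted p = 1.52e-05). DUSP1, a phosphatase that turns off MAP kinases, rose by 1.66. The members not called were IER3 at 0.34, GADD45B at 0.48 and KLF2 at 1.03, and DUSP2 had too few counts. Together the list's genes held 576 to 790 CPM without arsenite and 1711 to 2178 CPM with it, with no overlap between the groups.

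**Figure D2:**
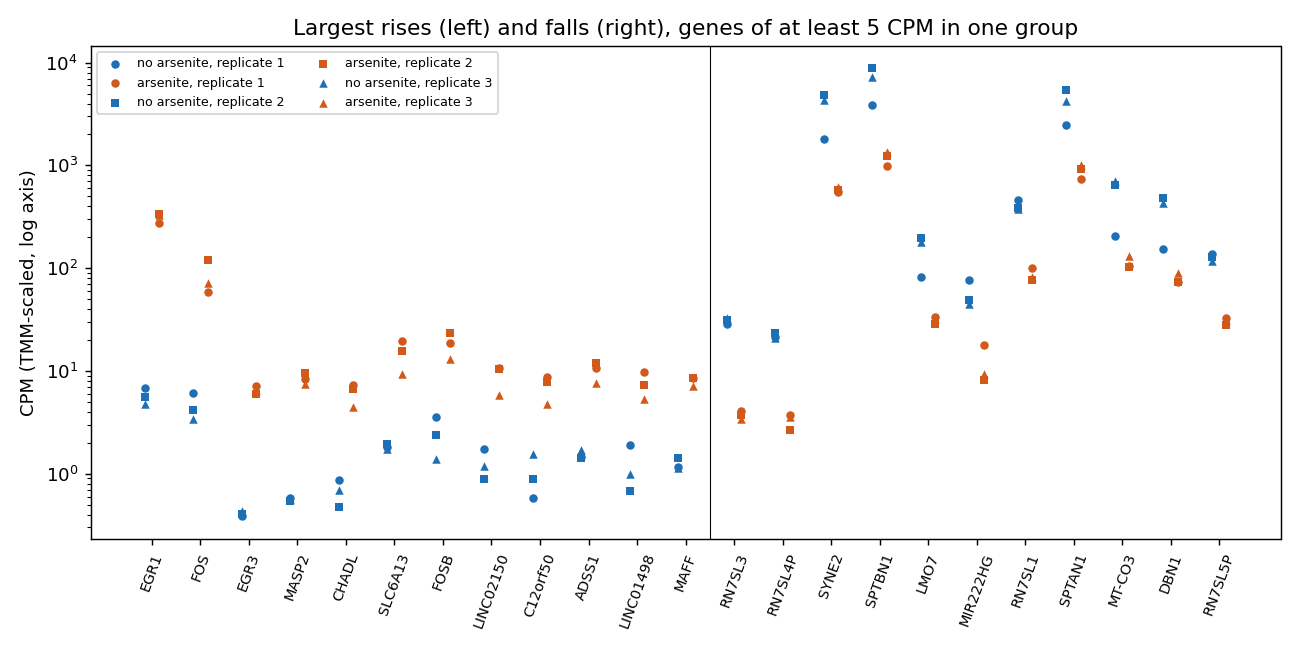
CPM on a log axis for the 12 genes with the largest rise and 11 of the 12 with the largest fall among genes of at least 5 CPM in one group, 1 point per WDM granule library, with marker shape for the replicate number. EGR1 moves from about 5 to about 300 CPM, and replicate 1 without arsenite sits below replicates 2 and 3 for SYNE2, SPTBN1, LMO7, SPTAN1, MT-CO3 and DBN1.

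Of 20 heat-shock and chaperone genes tested, 4 were called higher and 4 lower, 20.0% each way and so near the 18.7% and 17.7% of all genes. BAG3, a co-chaperone of HSP70, rose from 19.5 to 22.3 CPM up to 46.9 to 52.6 CPM (log2 change 1.25, edgeR adjusted p = 1.86e-06), and DNAJB1, another HSP70 partner, rose 2.01-fold. HSPA1A and HSPA1B, the near-identical genes of inducible HSP70 whose reads cannot be assigned with certainty, both rose by 0.73 on the log2 scale. HSPA4L, HSPA4, HSPD1 and HSPA8 fell, by 0.80, 0.74, 0.64 and 0.55. The groups of HSPD1 overlapped, and its call was lost in 4 of 14 alternatives (edgeR adjusted p up to 0.0684), that of HSPA1B in 2 (up to 0.0949). The count of falls rose to 7 without replicate 1 of the libraries without arsenite and dropped to 2 without its replicate 2, its replicate 3 or arsenite replicate 1. That of rises was 2 without arsenite replicate 3.

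Of 18 genes of the NRF2 antioxidant programme tested, 6 were called higher (33.3%) and 3 lower (16.7%), against 18.7% and 17.7% of all genes. MAFG, a partner of NRF2, rose 3.35-fold (11.6 to 12.7 CPM, then 34.2 to 47.6 CPM), and GCLM, a subunit of the enzyme that starts glutathione synthesis, rose 1.95-fold. HMOX1, heme oxygenase, was at 2.40, 4.34 and 4.07 CPM without arsenite and at 6.04, 7.34 and 5.91 CPM with it (log2 change 0.81, SE 0.235, edgeR adjusted p = 0.00828). Its highest adjusted p over 14 alternatives was 0.0646, above the threshold without both libraries numbered 1 and with offsets for GC content. TXN, thioredoxin, fell by 1.20 and PRDX1, a peroxiredoxin, by 0.84. Among metal-response genes, MT2A, a metallothionein, rose 3.18-fold and MTF1, the metal-sensing transcription factor, 2.19-fold, with 3 of 8 genes tested. Of 16 genes of the integrated stress response tested, 5 were higher (31.2%) and 1 lower (6.25%), led by CHAC1, a glutathione-degrading enzyme, with a log2 change of 1.35. ATF4, the programme's central factor, was at -0.21 and DDIT3 at 0.41, neither called. The single fall, CEBPG at -0.47, was among 0 to 3 falls with 1 library left out: 3 without replicate 1 and 0 without replicate 2 or 3 of the libraries without arsenite, 0 without arsenite replicate 1 or 2, and 2 without arsenite replicate 3.

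Ribosomal protein mRNAs fell almost without exception. Of 79 listed genes, 74 were tested, 71 were called lower (95.9% against 17.7% of all genes) and 0 higher, with a median log2 change of -1.20. RPS3, a small-subunit protein gene, was at 174, 277 and 278 CPM without arsenite and at 77.3, 73.7 and 73.9 CPM with it. These groups stand well apart, and RPS3 fell by 1.70 on the log2 scale (SE 0.169, edgeR adjusted p = 1.09e-07). RPS3A fell by 1.84 and RPL12 by 1.77. Members not called were RPS16 at -0.57, RPS15 at -0.37 and RPL28 at 0.22. The list's summed level was 8951 CPM in replicate 1 and 14590 and 14780 CPM in replicates 2 and 3 without arsenite, and 5443 to 5880 CPM with arsenite. Replicate 1 was thus lower than its partners, and still above every arsenite library. Without both libraries numbered 1, 73 of 74 were called lower at a median of -1.40. Processed pseudogenes share sequence with many of these genes, so single members are less certain than the list.

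These mRNAs are known for a terminal oligopyrimidine (TOP) start, a C followed by pyrimidines, which puts their translation under mTOR control. The first 20 bases of RefSeq transcripts (GRCh38.p14) are shown for 3 of them and for EEF1A1, with the leading pyrimidines in capitals.
RPS3 (chr11:75399518-75399537, plus strand): CCTTTCCTTTCagcggagcg
RPS12 (chr6:132814569-132814588, plus strand): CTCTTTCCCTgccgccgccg
RPL12 (chr9:127451387-127451406, minus strand): CCTCTCggctttcggctcgg
EEF1A1 (chr6:73521013-73521032, minus strand): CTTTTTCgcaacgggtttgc
Of 63 ribosomal protein genes with an entry, 43 (68.3%) start with C and at least 4 more pyrimidines, read on the transcript's strand. Among all 27305 entries 1104 (4.04%) do. The other TOP mRNAs, chiefly translation factors, share the start in 12 of 14 entries (85.7%) and moved alike. Of 15 tested, 12 fell (80.0% against 17.7% of all genes) and 0 rose, at a median of -0.92. EEF1A1, the elongation factor that delivers tRNA, was at 1376, 1995 and 1976 CPM without arsenite and at 629, 666 and 671 CPM with it, a 2.72-fold fall. RACK1, a ribosome-bound scaffold, fell 2.12-fold. NAP1L1, EIF3F and EEF1D were not called, at -0.45, -0.22 and -0.19.

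Respiratory chain, histone and proteasome genes were also called lower more often than the 17.7% of all genes. Of 58 nuclear genes of the respiratory chain tested, 42 were called lower (72.4%) and 0 higher, at a median of -0.79. ATP5F1C, the ATP synthase gamma subunit, went from 73.8 to 89.6 CPM down to 23.2 to 27.9 CPM (log2 change -1.72, edgeR adjusted p = 7.86e-08). Of 38 replication-dependent histone genes tested, 30 were lower (78.9%) and 0 higher, at a median of -0.85, with H3C2 at 57.5 to 112 CPM before and 28.8 to 33.3 CPM after arsenite. The histone count was 20 without replicate 2 or replicate 3 of the libraries without arsenite. In 18 of the 38 the fall was without overlap between groups, against 23.0% of all genes. Histone mRNAs lack a poly(A) tail, which the ribosomal-RNA depletion used here does not require, and their near-identical copies make single genes uncertain. Of 29 proteasome subunit genes, 16 were lower (55.2%) and 0 higher, led by PSMA4 at -1.12. The proteasome count was 10 without replicate 2 of the libraries without arsenite. Of 15 glycolytic enzyme genes, 5 were lower (33.3% against 17.7% of all genes), GAPDH by 1.26 and ENO1 by 0.97 among them, 9 were not called and HK2 was higher by 0.70. That count of 5 was 11 without replicate 1 of the libraries without arsenite, 2 without its replicate 2, its replicate 3 or arsenite replicate 1, and 3 without arsenite replicate 2.

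Host transcripts of small nucleolar RNAs have spliced exons that mostly encode no protein, and they also carry TOP starts in several cases. Of 14 tested, 11 were called lower (78.6% against 17.7% of all genes) and 0 higher, at a median of -0.86. The count of falls was 9 without replicate 2 or 3 of either group. SNHG1 was at 96.4, 93.3 and 83.3 CPM without arsenite and at 34.6, 31.9 and 25.5 CPM with it. GAS5 fell by 1.41, from 148 to 161 CPM down to 46.7 to 67.4 CPM.

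The signal recognition particle RNA is an RNA polymerase III product that targets ribosomes to the endoplasmic reticulum. Its entries RN7SL3 and RN7SL4P had the largest falls among called genes of at least 5 CPM without overlap between groups. RN7SL3 was at 28.5, 31.3 and 32.8 CPM without arsenite and at 4.11, 3.71 and 3.44 CPM with it, an 8.23-fold fall (log2 change -3.04, SE 0.209, edgeR adjusted p = 1.37e-10). RN7SL1 fell 4.68-fold, from 375 to 460 CPM down to 76.2 to 101 CPM. The copies RN7SL4P and RN7SL5P gave folds of 6.61 and 4.19, and since the copies are near-identical, all 4 may count reads of the same RNA. VTRNA1-3, a vault RNA of the same polymerase, was at 0.59 on the log2 scale and not called, and of the 13 listed polymerase III genes 3 were tested, VTRNA1-3, RN7SL1 and RN7SL3.

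Several of the most counted mRNAs without arsenite encode large cytoskeletal linkers and fell; they are given one by one, since no list of linkers was fixed. MACF1, a plakin that joins microtubules to actin, held the largest share of counts without arsenite, 0.558%, 1.18% and 0.988% of the 3 libraries, and 0.219% to 0.246% with arsenite. SPTBN1, beta-II spectrin, was at 3876, 8798 and 7167 CPM without arsenite and at 987, 1226 and 1337 CPM with it. Its groups do not overlap although replicate 1 lies well below replicates 2 and 3, and the fold was 5.59 (edgeR adjusted p = 4.49e-07). SYNE2, nesprin-2, which ties the nuclear envelope to actin, fell 6.28-fold, from 1786, 4834 and 4356 CPM to 556, 575 and 616 CPM. SPTAN1, alpha-II spectrin, fell 4.56-fold. LMO7, an adherens-junction protein gene, fell 4.87-fold and DBN1, the actin-binding drebrin, 4.52-fold. PLEC and DST, further plakins, both fell by 2.06 on the log2 scale (PLEC 577 to 1125 CPM down to 191 to 219 CPM). Genes outside the fixed rule, such as DST, the upstream neighbours and the members not called, are named after their values were seen. Without both libraries numbered 1 the log2 changes of SYNE2, SPTBN1, SPTAN1, LMO7 and DBN1 were -2.95, -2.65, -2.33, -2.64 and -2.49.

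Of 29 long transcripts usually described as rich in granules, 11 rose (37.9% against 18.7% of all genes) and 6 fell (20.7%, near the 17.7% of all genes), at a median of 0.12. Rises were led by mRNAs of nuclear proteins: KMT2D, a histone methyltransferase, went from 258 to 279 CPM up to 696 to 1058 CPM (log2 change 1.79, edgeR adjusted p = 7.62e-07), SRRM2, a splicing-speckle protein, rose by 1.42 and ANKRD11, a chromatin regulator, by 1.00. NORAD, a long noncoding RNA that binds Pumilio proteins, rose by 0.96. PRKDC at 0.29 and DYNC1H1 at 0.06 were among those not called, and PRKDC held the largest share of counts of the arsenite libraries, 0.530% to 0.584%. The 6 falls included the plakins MACF1 and PLEC described above, and the lowest log2 change of the list was -2.06. UTRN, of the dystrophin family, fell by 0.82, and VPS13A, a lipid-transfer protein gene, by 0.79. Without replicate 3 of either group 6 rose and 4 fell.

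Genes for the proteins of RNA granules moved unequally. Of 25 genes of processing bodies and mRNA decay, 15 rose (60.0% against 18.7% of all genes) and 3 fell (12.0% against 17.7%), at a median of 0.52. The rises numbered 16 without both libraries numbered 1, and 12 without replicate 2 or 3 of the libraries without arsenite. AGO1, an Argonaute of the microRNA machinery, went from 153 to 189 CPM up to 311 to 406 CPM (log2 change 1.06, edgeR adjusted p = 1.78e-05). CNOT3, of the deadenylase complex, rose 2.02-fold, PATL1, a decapping activator, 1.97-fold and AGO2 1.87-fold. DCP1B, CNOT7 and PAN2 fell, by 0.91, 0.80 and 0.50, while the decapping cofactor gene DCP1A rose by 0.76. DDX6, XRN1 and EDC4 were not called, at -0.27, -0.24 and 0.13. Of 18 stress granule protein genes, 4 rose and 4 fell, near the background shares, and with 1 library left out the counts lay between 1 and 4 in both directions. YTHDF1, a reader of m6A, rose by 0.92 and CIRBP, a cold-inducible RNA-binding protein, fell by 0.64. G3BP1, the granule scaffold, was at -0.07. TIAL1, the paralogue of TIA1, was at 127, 96.1 and 104 CPM without arsenite and 83.6, 77.1 and 68.3 CPM with it (log2 change -0.52, edgeR adjusted p = 0.0167), and 4 of 14 alternatives, up to an adjusted p of 0.0962, lost the call. Of 13 genes for proteins that bind AU-rich elements, 8 rose (61.5% against 18.7% of all genes) and 1, TIAL1, fell. ZFP36L1 was up 3.41-fold and ELAVL1, HuR, up by 0.75. The rises numbered 6 without replicate 3 of the libraries without arsenite, or without arsenite replicate 2 or 3.

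Mitochondrial transcripts had large but unstable differences. The median log2 change of the 15 genes was -1.97, but only MT-CO3, a cytochrome oxidase subunit, was called. It was at 205, 639 and 698 CPM without arsenite and at 106, 102 and 131 CPM with it (log2 change -2.19, SE 0.578, edgeR adjusted p = 0.0177), a call lost in 6 of 14 alternatives. The list's summed level was 1127 CPM in replicate 1 against 3442 and 4221 CPM in replicates 2 and 3 without arsenite, and 897 to 1609 CPM with it, so the groups overlap through replicate 1. Leaving out that library gave 9 genes called lower, and leaving out any other one gave 0. Of 12 nuclear-retained long noncoding RNAs, 1 rose (8.33%), TUG1 by 0.82, and 3 fell (25.0%), with MALAT1 by 0.62 and MIR17HG, the host of a microRNA cluster, by 1.15. MIR222HG, host of another microRNA cluster, fell 4.85-fold. Of 185 zinc-finger genes of chromosome 19 tested, 18 rose (9.73%) and 12 fell (6.49%), both below the shares of all genes, a split that became 39 and 4 with offsets for GC content and 29 and 7 with library size alone. The falls numbered 6 and 4 without replicate 2 or 3 of the libraries without arsenite, and 5 and 7 without arsenite replicate 1 or 3. Of 21 genes of SR splicing factors and CLK kinases, 2 rose (9.52%) and 7 fell (33.3%), 3 with GC offsets and 4 without replicate 2 or 3 of the libraries without arsenite or arsenite replicate 3. Of 31 endoplasmic reticulum chaperone and translocon genes, 3 rose (9.68%), HYOU1 1.91-fold among them, and 11 fell (35.5%), SEC61G by 1.44 first. The falls numbered 6 and 7 without replicate 2 or 3 of the libraries without arsenite, and 7 without arsenite replicate 3. Of 19 genes of sterol synthesis and uptake, 2 rose (10.5%) and 3 fell (15.8%), both below the 18.7% and 17.7% of all genes, with falls of MVD and FDPS, enzymes of the mevalonate pathway, by 0.84 and 0.67. Without replicate 1 of the libraries without arsenite, or without arsenite replicate 3, 1 rose.

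**Figure D3:**
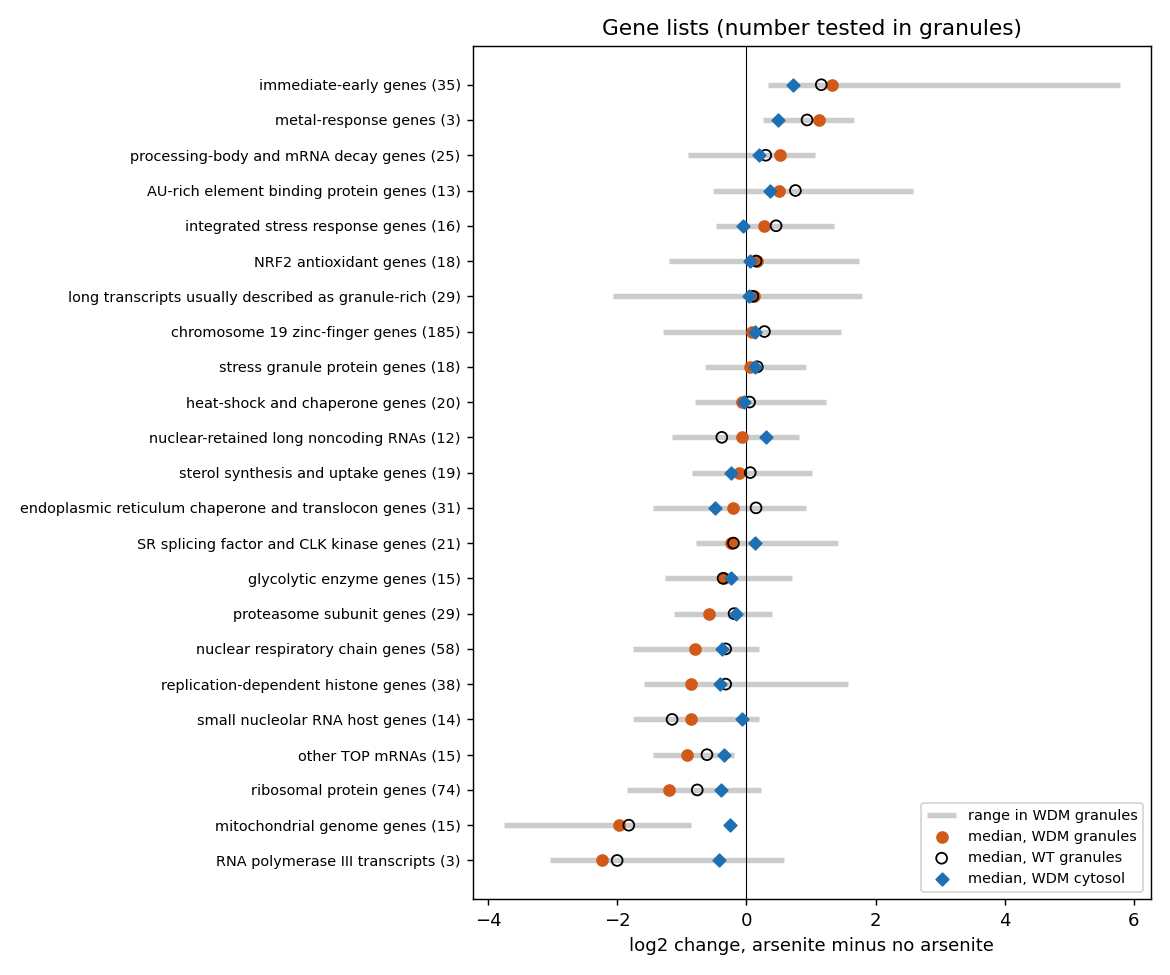
Median log2 change with arsenite of each gene list in WDM granules, WT granules and WDM cytosol (points), with the range over its genes in WDM granules (grey bar) and the number tested in brackets. Immediate-early genes lie highest among the larger lists at 1.32, and ribosomal protein genes, at -1.20 in WDM granules, lie at -0.76 in WT granules and -0.40 in WDM cytosol.

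Among the 12 largest rises, several were genes of low level that lie just downstream of another gene. MASP2, a complement protease of the liver, went from 0.543 to 0.577 CPM up to 7.52 to 9.53 CPM, and on its strand the gene SRM ends 7345 bases upstream of it. CHADL, at 0.475 to 0.866 CPM before and 4.48 to 7.28 CPM after arsenite, starts 3848 bases after RANGAP1 ends. ADSS1, a muscle enzyme of adenylate synthesis, rose 6.57-fold and starts 1694 bases after INF2, and LINC01498 rose 6.48-fold and starts 7191 bases after SART3. SLC6A13, LINC02150 and C12orf50 rose 7.94-fold, 7.22-fold and 6.70-fold and have no such neighbour within 10000 bases among the genes tested. Of the upstream genes, SRM rose by 0.81 and INF2 by 0.44 on the log2 scale, while RANGAP1 at 0.11 and SART3 at 0.05 were not called.

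Position was therefore counted over all genes, a measure chosen after these values were seen. A tested gene ending on the same strand within 10000 bases upstream was found for 3636 of 18366 genes (19.8%). The share was 51.5% of the 235 genes called higher by a log2 change of at least 2, 35.3% of the 1075 called higher by 1 to 2, 22.0% of the 2119 called higher by less and 12.5% of the 3246 called lower. Genes were also split by level. Under 2 CPM the share was 42.4% of 602 genes called higher by at least 1, 5.02% of 219 called lower by as much and 22.8% of all 4533. At 2 CPM and more it was 34.7% of 708 against 18.8% of all. Genes with such a neighbour had a higher GC content, at a median of 54.4% for those within 2000 bases against 47.3% for those with none, and with offsets for GC content the shares were 50.5%, 38.0%, 19.6% and 15.5%. Of genes starting within 2000 bases, 26.2% were called higher and 8.72% lower, against 16.7% and 19.3% of genes with none. Their median log2 change was 0.26 in WDM granules, 0.04 in WT granules and 0.06 in WDM cytosol. These shares and medians by distance carry no offset for GC content. Protein-coding genes of 51.86% to 58.6% GC, taken without regard to position, gave 29.3% called higher and 10.2% lower. The median log2 changes of that quintile were 0.21 in WDM granules, 0.02 in WT granules and -0.05 in WDM cytosol. A part of position apart from GC content was not tested for them. The kit marks strand, but whether the counting used it is not given in the sources used here.

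**Figure D4:**
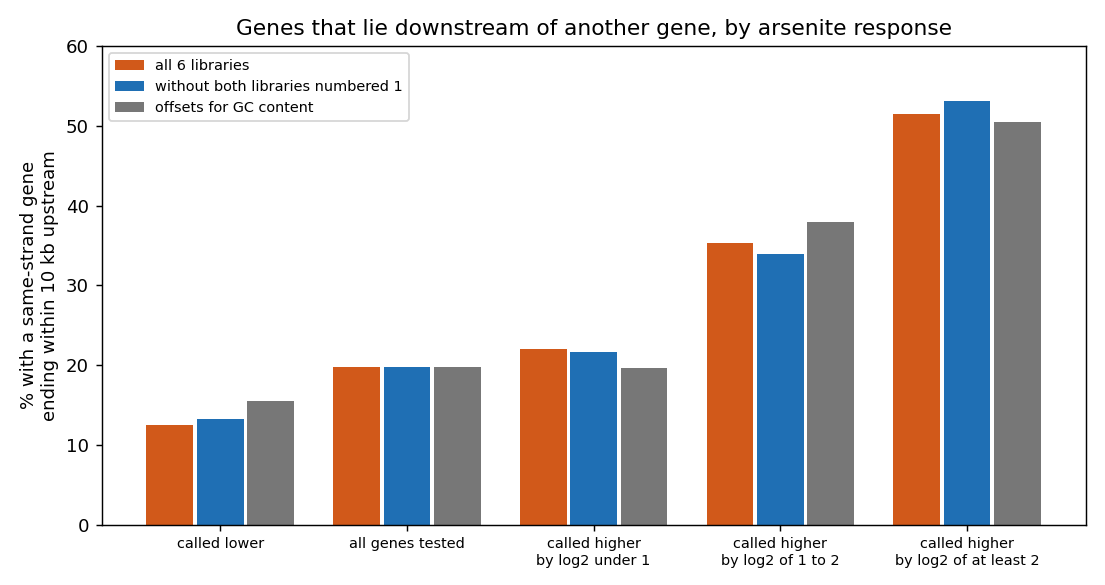
Percentage of genes with another tested gene ending on the same strand within 10000 bases upstream (bars from 0), for genes grouped by their arsenite response in WDM granules. The share climbs from 12.5% of genes called lower to 51.5% of genes called higher by at least 2 on the log2 scale, and the 3 analyses (all 6 libraries, without both libraries numbered 1, and with offsets for GC content) give the same order of groups except that, with GC offsets, the genes called higher by less than 1 sit at 19.6% beside 19.8% of all genes.

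Base composition moved with arsenite in WDM granules. Across 13722 protein-coding genes, the Spearman correlation of the log2 change with the GC content of the main transcript was 0.36 in WDM granules, -0.02 in WT granules and, over 13477 genes, -0.041 in WDM cytosol. Genes share libraries and are not independent points, so these are descriptions. The median GC content was 54.1% for genes called higher, 42.7% for genes called lower and 48.4% for all. In the lowest quintile by GC content 6.34% were called higher and 35.2% lower, and in the highest 31.5% and 5.83%. TIA1 binds U-rich sequence, and the U content of the 3′ UTR gave a correlation of -0.281 in WDM granules, 0.06 in WT granules and 0.041 in WDM cytosol. Its median was 27.3% in genes called higher and 32.8% in genes called lower. No value adjusted for GC content was computed for U content, so a part of it apart from the GC trend was not tested. An ATTTA pentamer was present in the 3′ UTR of 75.7% of genes called higher, 74.6% of those called lower and 72.8% of all.

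The trend was visible library by library. Against the mean of the granule libraries, each library's rank correlation with GC content was -0.251, -0.158 and -0.21 in WDM cells without arsenite and 0.408, 0.204 and 0.381 with it. These groups did not overlap. In WT granules the values were -0.114, 0.213 and -0.168 without and -0.407, 0.062 and 0.153 with arsenite, so the groups overlapped there. The part of this trend in the changes of single genes was not tested. With offsets that remove each library's trend, 6619 genes were called, of which 5177 were among the 6675, and ribosomal protein, immediate-early and histone genes gave 73 lower, 30 higher and 32 lower.

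**Figure D5:**
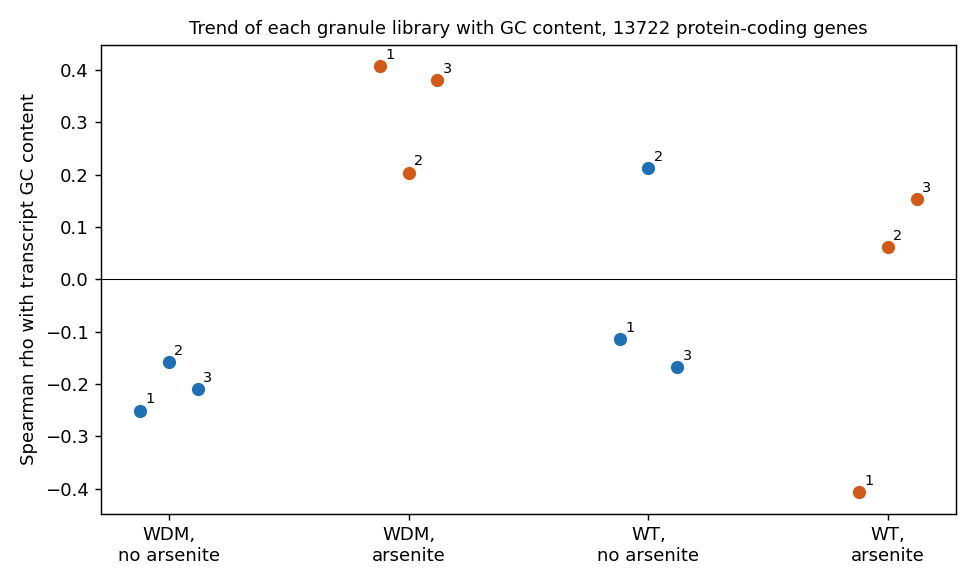
Spearman correlation of each granule library's log2 deviation from the mean of the 12 with transcript GC content over 13722 protein-coding genes (vertical axis), by group, with replicate numbers beside the points. The 3 WDM arsenite libraries lie at 0.204 to 0.408 and the 3 without arsenite at -0.251 to -0.158, while both WT groups spread across 0.

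Total transcript length was related more alike in the 3 comparisons than GC content was, but its parts were not. The rank correlation of the log2 change with transcript length was 0.169 in WDM granules, 0.198 in WT granules and 0.23 in WDM cytosol. With coding length it was 0.106, 0.013 and 0.287 in the same order, and with 3′ UTR length 0.151, 0.276 and 0.088. In the shortest quintile of transcripts (207 to 1889 bases) the median log2 change was -0.25 in WDM granules, -0.20 in WT granules and -0.21 in WDM cytosol. In the longest it was 0.08, 0.12 and 0.07.

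Whether the WDM form altered the response was asked by comparing the arsenite effect in WDM granules with that in WT granules. No gene passed at an edgeR adjusted p under 0.05 (0 of 18366), and DESeq2 also called 0, while 2329 genes (12.7%) had an unadjusted p under 0.05. With WT granules alone, 5620 genes (30.6%) were called, 3032 higher (16.5%) and 2588 lower (14.1%). Of the 3429 genes higher in WDM granules, 1905 were also called higher in WT granules (55.6% of the WDM calls, 62.8% of the WT calls), and 1730 of the 3246 lower (53.3% and 66.8%). Opposite calls numbered 0. Across genes the log2 changes correlated at Pearson r 0.726 and Spearman rho 0.716. EGR1 changed by 4.96 in WT granules, SPTBN1 by -2.54, RN7SL3 by -2.58 and RPS3 by -1.35. The ribosomal protein genes were called lower in 62 of 74 cases and the immediate-early genes higher in 33 of 35.

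The 3 genes with the smallest p for the difference were KMT2B, MUC16 and GPR180. KMT2B, a histone methyltransferase gene, changed by 1.11 in WDM and -0.08 in WT granules (difference 1.19, edgeR adjusted p = 0.173). MUC16, a membrane mucin, changed by 1.74 and 0.38. GPR180 was at 95.8, 106 and 115 CPM without arsenite and 78.4, 105 and 113 CPM with it in WDM granules, a log2 change of -0.10, and changed by 1.08 in WT granules. None of these differences passed the threshold.

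The arsenite response of WDM granules was then set against that of WDM cytosol in a joint fit of 24 libraries. Fewer genes were called in cytosol than in granules within that fit: 1963 of 18141 (10.8%), 1275 higher (7.03%) and 688 lower (3.79%), against 7702 (42.5%) in granules. Scaling over both fractions placed the median granule change at -0.103, against 0.008 in the granule fit, and 39.3% of granule calls were higher, against 51.4%. The difference between the 2 fractions' responses passed for 4386 genes (24.2%), 1390 more positive (7.66%) and 2996 more negative (16.5%) in granules. The median difference of all genes was -0.171, and the split was sensitive to base composition: with offsets for GC content the median was -0.02 and 55.8% of 3765 called genes were more positive in granules, against 31.7% of the 4386. Across 17631 genes the changes in granules and cytosol correlated at r 0.386 and rho 0.263.

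The falls of SYNE2, SPTBN1 and RN7SL3 differed from the cytosol response. SYNE2 changed by -0.20 in cytosol (difference -2.56, edgeR adjusted p = 4.8e-05), SPTBN1 by -0.48 (difference -2.11) and RN7SL3 by -0.43 (difference -2.71). None of these cytosol changes was called. For ribosomal protein genes, 2 of 74 were called lower in cytosol at a median of -0.40, where 3.79% of all genes were called lower. A more negative change in granules was called for 57 of the 74, against 16.5% of all genes. The small nucleolar RNA host genes were more negative in granules in 11 of 14 cases. These list counts were not repeated with offsets for GC content. SNHG1 rose by 0.57 in cytosol and fell by 1.57 in granules, a difference of -2.23. CEP295, a centriole protein gene, and PRPF39, a splicing factor gene, fell in granules by 1.41 and 1.10 and were at 0.15 and 0.50 in cytosol, where PRPF39 was called.

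Of the 3429 genes called higher in granules, 3337 were tested in both fits. Of these, 483 were also called higher in cytosol, and 1167 had a called difference that was more positive in granules. Over all genes tested, the shares of such calls were 7.03% and 7.66%. The 3429 genes were picked for a rise in the same granule libraries that enter the difference. An excess of more positive differences among them is thus in part fixed by the choice. The genes with the smallest p for a more positive difference, and ADSS1, are given here. POFUT1, the enzyme that adds O-fucose to Notch, went from 75.2 to 95.6 CPM up to 160 to 197 CPM in granules (log2 change 1.06) and fell by 0.64 in cytosol, a difference of 1.60 (edgeR adjusted p = 3.35e-06). PTGFRN, a tetraspanin-associated membrane protein, rose by 1.04 in granules and fell by 0.61 in cytosol. ASB1 and DENND11 both rose by 1.12, with cytosol changes of -0.31 and -0.33 that were not called. ADSS1 was at 0.09 in cytosol against a log2 rise of 2.71 in granules. EGR1 and FOS changed more in cytosol, by 6.71 and 5.52, and their differences of -1.02 and -1.39 lost significance without both WDM granule libraries numbered 1 (adjusted p of 0.149 and 0.132). TIAL1 rose by 0.77 in cytosol while its granule share fell, a difference of -1.38.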

How the data were processed

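Raw gene counts were deposited by the authors as 1 table of 30 libraries. Per the submitters' processing notes, reads were trimmed with Trimmomatic, aligned with STAR to GRCh38, processed with Picard and counted with featureCounts. Versions and the strand setting are not given in the sources used here. The 12 granule libraries were fitted together with edgeR 4.0.16 (robust quasi-likelihood F-test, TMM, filterByExpr with a minimum count of 10 and total of 15), with 1 mean per group and Benjamini-Hochberg adjustment over 18366 genes. The cytosol comparison used 24 libraries. SE is the absolute log2 change divided by the square root of F. Transcript properties came from the Ensembl canonical transcripts of GENCODE v44 and sequences from RefSeq. Named genes were the 12 largest called changes each way with at least 5 CPM in a group and no overlap between groups, the strongest called members of each list, and the strongest interactions. A few of them are not reported here. The members and lists were chosen with earlier results of these data known. The scripts were tested on simulated data. The fits were repeated with other scaling (RLE, or totals only), without the count filter, with replicate number as a block, on only the groups compared, with DESeq2 1.42.0, and with each library omitted in turn. Fits without both WDM libraries numbered 1 and with GC offsets were chosen after seeing the data.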

Additional observations from a re-analysis of the deposited data

Results flagged for a closer look

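Among the genes named for the size of their change or for the difference from cytosol, and TIAL1, 22 had an arsenite log2 change in WDM granules that differed from that in WDM cytosol by a test of the difference itself (edgeR adjusted p under 0.05). It was more negative in granules for 17: RN7SL3 (-2.71), SYNE2 (-2.56), RN7SL4P (-2.31), SNHG1 (-2.23), SPTBN1 (-2.11), LMO7 (-2.07), MIR222HG (-1.91), SPTAN1 (-1.89), DBN1 (-1.84), MT-CO3 (-1.84), RN7SL1 (-1.83), PRPF39 (-1.70), RN7SL5P (-1.68), CEP295 (-1.66), FOS (-1.39), TIAL1 (-1.38) and EGR1 (-1.02). It was more positive in granules for 5: ADSS1 (2.53), POFUT1 (1.60), PTGFRN (1.56), DENND11 (1.35) and ASB1 (1.33). EGR1 and FOS rose in both fractions. Genes named for the difference from cytosol were picked by this same test, so their passing was fixed by the choice. The others, apart from TIAL1, were picked for a large called change in granules. Of all 18141 genes tested for the difference, 24.2% passed. Over all genes picked by the naming rule, without those not reported here, the difference passed for 86, 68 more negative and 18 more positive in granules.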

How the results depend on the processing

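The number of genes called in WDM granules (6675) lay between 5063 and 6415 with single libraries omitted, and between 6095 and 8128 over the other alternatives. No called gene among the 140 named ones changed direction, and 14 lost their call under at least 1 alternative, MT-CO3 in 6 of 14. GPR180, not called, lay between -0.207 and 0.046 with single libraries omitted, positive without arsenite replicate 1, and at 0.151 with GC offsets. With library size alone 59.7% of calls were higher, against 51.4%. For the difference between WDM and WT granules the count of 0 became 44 with no low-count filter, and 0 to 5 with 1 library left out. Samples of the WDM groups shared only a replicate number: same-numbered deviations correlated at 0.454, 0.0997 and 0.23, and not every sample correlated best with its own number. With a replicate block 8128 genes were called in WDM granules, 473 for the difference from WT and 5748 for the difference from cytosol. The last count, 4386, ranged from 3134 to 4561 with 1 library left out, and the cause of these shifts was not tested. Libraries without arsenite were the shallower, where 3 counts equal 0.184 to 0.297 CPM, and low genes are least certain there.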

Other observations

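Gene classes differed in how often they were called with arsenite in WDM granules. Of 13722 protein-coding genes, 20.2% were called higher and 19.4% lower, and of 3434 long noncoding RNA genes 15.8% and 10.8%. Of 327 processed pseudogenes, 9.17% were called higher and 22.9% lower. The 100 most counted genes together held 14.2% of counts without arsenite (12.3%, 15.5% and 14.7% in the 3 libraries) and 11.2% with it (10.7%, 11.3% and 11.5%), with no overlap between the groups.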
